A study of Homo sapiens with 4 samples.

Results

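Peaks of γH2AX around human centromeres were those whose start lay within 3 Mb of 1 fixed point on each of 23 chromosomes, 1 to 22 and X, in build hg38. On chromosome 5 only starts on the long-arm side of the point were taken. This position rule uses no measured value. It took 433 of 27296 peaks of the lipid-overload list and 179 of 8542 peaks of the mock list, or 612 of 35838 in both. The study mapped γH2AX by CUT&Tag, in which an antibody directs a transposase to cut and tag the DNA beside it, in cells of the liver cancer line HepG2. Cells with lipid overload (title HEPG2-PAOA) and mock-induced cells (title HEPG2-DMSO) gave 1 library each, from 100000 cells and 14 PCR cycles, with no genetic change named for either. Both also had an IgG sample, not analysed here, so no antibody background stands beside the values. With 1 library per condition no difference between the conditions has a replicate check, and each interval is an exact 95% interval for counting error only. A peak list holds no expression, so the cell line could not be checked against marker genes.

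γH2AX is the histone variant H2AX phosphorylated at serine 139, a mark that spreads over chromatin beside DNA double-strand breaks. The centromere is the place where the kinetochore forms and spindle fibres attach. Its core in human cells is built of tandem alpha satellite, and the flanks, the pericentromere, hold other satellites, segmental duplications, pseudogenes and few genes, much of it packed as heterochromatin. Near-identical copies make short reads hard to place there, and the number of copies in HepG2 can differ from that in the reference. How far either touches the values below was not tested.

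A promoter window was overlapped by 62 of the 433 lipid-overload members (14.3%, against 22.6% of the rest of the list) and by 16 of the 179 mock members (8.94%, against 20.0%). The 6 promoters below carried the highest such gene-end peaks, shared or found only in lipid overload. Each is a RefSeq window of GRCh38.p14, whose coordinates are those of hg38, from 250 bases before to 50 after the transcription start. Capitals mark the GC box GGGCGG or its reverse complement CCGCCC, bound by Sp1-type factors, and the CCAAT box or its reverse complement ATTGG, bound by NF-Y. The letters of a GC box and a CCAAT box can share bases, and each was searched on its own, on both strands. The first 3 had overlapping peaks in both lists, and the next 3 a peak in lipid overload only. HSPA13 (chr21:14383097-14383396, minus strand) encodes an Hsp70-family ATPase, ZNF337 (chr20:25696804-25697103, minus strand) a zinc finger protein and ABHD12 (chr20:25390786-25391085, minus strand) a lipase of lysophosphatidylserine. ANKRD39 (chr2:96857967-96858266, minus strand) encodes an ankyrin repeat protein, DUSP2 (chr2:96145391-96145690, minus strand) a phosphatase of MAP kinases and NCAPH (chr2:96335516-96335815, plus strand) a subunit of condensin, which compacts mitotic chromosomes.
HSPA13: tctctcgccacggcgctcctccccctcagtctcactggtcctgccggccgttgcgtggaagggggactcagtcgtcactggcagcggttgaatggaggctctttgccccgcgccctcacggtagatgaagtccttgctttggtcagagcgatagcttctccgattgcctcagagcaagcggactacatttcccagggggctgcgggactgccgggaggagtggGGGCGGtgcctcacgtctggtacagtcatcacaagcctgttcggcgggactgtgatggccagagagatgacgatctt
ZNF337: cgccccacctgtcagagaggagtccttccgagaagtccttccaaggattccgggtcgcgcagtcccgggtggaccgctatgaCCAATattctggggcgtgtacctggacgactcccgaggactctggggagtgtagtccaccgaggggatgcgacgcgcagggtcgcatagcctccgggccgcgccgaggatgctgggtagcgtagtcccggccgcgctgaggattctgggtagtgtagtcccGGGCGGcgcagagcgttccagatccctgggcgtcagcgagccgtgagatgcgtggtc
ABHD12: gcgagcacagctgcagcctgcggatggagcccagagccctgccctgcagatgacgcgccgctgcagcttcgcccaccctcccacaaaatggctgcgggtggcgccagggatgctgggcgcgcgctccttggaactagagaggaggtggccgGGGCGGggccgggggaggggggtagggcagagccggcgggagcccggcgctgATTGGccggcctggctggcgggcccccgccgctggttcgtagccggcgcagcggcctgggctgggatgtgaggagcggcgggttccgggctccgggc
ANKRD39: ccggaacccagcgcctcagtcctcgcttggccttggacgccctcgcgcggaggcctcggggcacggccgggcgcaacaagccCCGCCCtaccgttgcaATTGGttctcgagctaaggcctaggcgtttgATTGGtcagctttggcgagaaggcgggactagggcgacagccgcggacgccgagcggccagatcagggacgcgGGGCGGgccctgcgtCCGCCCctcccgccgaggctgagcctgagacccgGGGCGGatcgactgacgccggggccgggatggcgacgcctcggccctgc
DUSP2: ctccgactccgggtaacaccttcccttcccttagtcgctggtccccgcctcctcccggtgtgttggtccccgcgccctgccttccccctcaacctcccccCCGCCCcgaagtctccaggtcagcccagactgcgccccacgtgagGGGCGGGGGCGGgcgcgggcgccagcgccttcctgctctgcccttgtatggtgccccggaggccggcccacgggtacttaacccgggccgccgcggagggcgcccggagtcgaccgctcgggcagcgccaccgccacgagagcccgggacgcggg
NCAPH: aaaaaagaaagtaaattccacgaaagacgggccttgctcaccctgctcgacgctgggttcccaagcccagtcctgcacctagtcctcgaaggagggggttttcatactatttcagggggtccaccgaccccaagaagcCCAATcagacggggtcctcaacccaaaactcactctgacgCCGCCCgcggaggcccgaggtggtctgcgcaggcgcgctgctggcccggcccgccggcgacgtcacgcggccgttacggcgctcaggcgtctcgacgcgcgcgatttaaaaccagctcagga

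The lipid-overload summit lay 109 bp before the start of HSPA13, 49 bp before that of ZNF337, 211 bp before that of ABHD12, 134 bp before that of ANKRD39 and 127 bp before that of DUSP2. At NCAPH it lay 308 bp after the start. These 6 windows held between 62% and 75.3% G+C and between 21 and 39 CpG. All 6 held a GC box, 4 in ANKRD39, 3 in DUSP2 and 1 in each of the others. A CCAAT box was found in ZNF337, ABHD12, ANKRD39 and NCAPH. Over all 35116 promoter windows of the table, 45.0% held a GC box and 34.6% a CCAAT box.

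Such windows were common among marked promoters around centromeres. The region had 491 windows of 405 genes, of which 79 (16.1%) were overlapped by a lipid-overload peak and 21 (4.28%) by a mock peak. Elsewhere the shares were 24.1% and 6.66%. A GC box stood in 79.8% of the 79 windows marked in lipid overload and in 81.0% of the 21 marked in mock, against 29.9% of the 408 with no peak. A CCAAT box stood in 46.8% and 38.1%, against 37.8% of those with no peak. Marked windows had a median of 66.7% G+C in both lists and 30 CpG in lipid overload and 31 in mock, against 52.3% and 7 in windows with no peak. Marked windows elsewhere had similar shares, with a GC box in 78.4% of those marked in lipid overload and 80.0% of those marked in mock.

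The region made up a smaller share of the lipid-overload list than of the mock list. It held 1.59% of the lipid-overload peaks (1.44 to 1.74) and 2.1% of the mock peaks (1.80 to 2.42). Per Mb of window, assembly gaps included, there were 3.21 and 1.33 peaks. The density in the rest of the genome was not computed, so these shares do not show a region rich in peaks. Lipid overload had 2.42 times as many peaks as mock around centromeres, with 433 (393.2 to 475.8) and 179 (153.7 to 207.2), and 3.21 times as many in the rest of the genome. Depth differs between the libraries. Fragment ends per 10 kb of genome background, recovered from the deposited fold and −log10 p, were 46.4 in lipid overload and 17.7 in mock, a ratio of 2.62, here called the depth ratio. In fragments covering a base, which also depend on fragment length, the genome backgrounds had a ratio of 2.39. Between lists of equal length, the best-ranked 8542 lipid-overload peaks held 178 members (2.08%), against 179 (2.1%) in mock.

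The members were spread unevenly over the chromosomes. Chromosome 2 had most in lipid overload, with 72 peaks and 24 in mock. Chromosome 4 had 51 peaks in lipid overload and 25 in mock, and chromosome 21 had 41 and 21. On chromosomes 4 and 21 the region was a large part of what was listed, at 10.4% of the lipid-overload peaks and 13.1% of the mock peaks of chromosome 4, and 11.1% and 17.2% of those of chromosome 21. Chromosome 14 had none in either list, and chromosome 7 had 3 in lipid overload and none in mock. On chromosomes 1, 3, 7, 11, 18 and X neither list had more than 5. Chromosomes 3 and 9 were the only ones with fewer members in lipid overload than in mock, with 3 against 4 and 4 against 6.

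**Figure D1:**
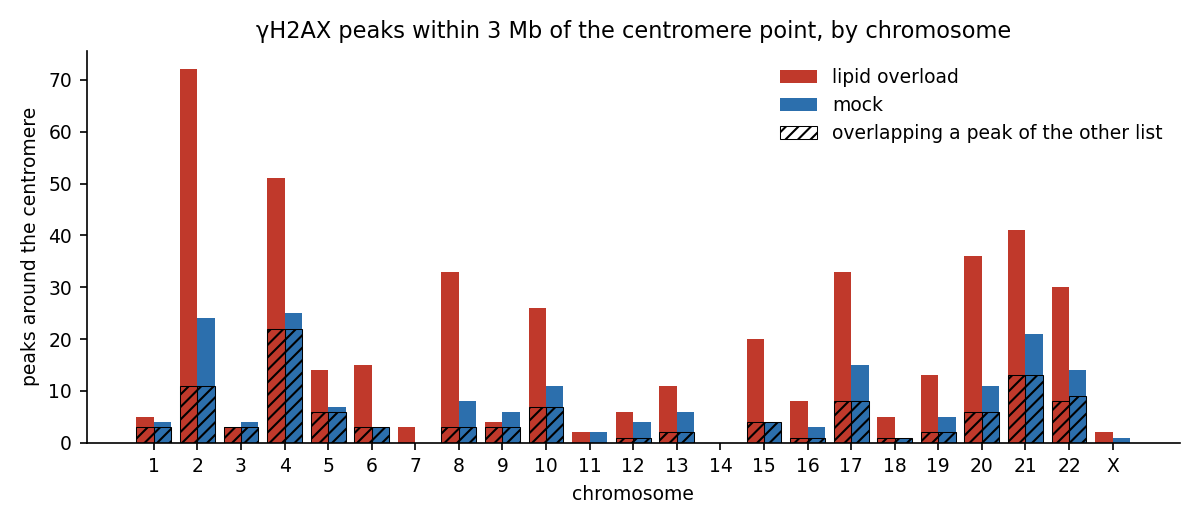
Number of γH2AX peaks within 3 Mb of the centromere point (y axis) on each chromosome (x axis), with lipid overload in red left of mock in blue, 1 library each, and the hatched part the peaks that overlap a peak of the other list. Chromosome 2 stands highest with 72 lipid-overload peaks, while the most overlapping peaks, 22 in each list, are on chromosome 4.

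Some of the tallest peaks of both lists lay around centromeres. Height is given as fragments over the summit. In lipid overload 19 members had 50 or more fragments, 4.39% of members against 0.823% of the rest of the list and 0.879% of all its peaks. In mock 7 members did, 3.91% of members against 0.383% of the rest and 0.457% of all. Members were therefore 19 of the 240 lipid-overload peaks of that height (7.92%, 4.83 to 12.1) and 7 of the 39 in mock (17.9%, 7.54 to 33.5). The excess was in part on chromosomes 4 and 5. Without them members made up 9 of 211 such peaks in lipid overload (4.27%, 1.97 to 7.94) and 4 of 33 in mock (12.1%, 3.4 to 28.2). The typical member was no taller than other peaks in lipid overload, with a median of 9 fragments (quartiles 6 and 15) and 9 in the rest of the list (quartiles 6 and 13). In mock the members had a median of 6 fragments (quartiles 4 and 11) and the rest 5 (quartiles 4 and 7). Ranked by the authors' −log10 q, 8 of the 50 best peaks of either list were members.

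The best-ranked member of both lists lay on the short arm of chromosome 4, outside any annotated gene, at chr4:49149336-49149824 in the lipid-overload list. It had 302 fragments in lipid overload (268.9 to 338.1) and 149 in mock (126.0 to 174.9), and it was the second-best peak of each whole list. The next, chr3:93470362-93470781, had 219 fragments in lipid overload (191.0 to 250) and 150 in mock (127.0 to 176.0). Both peaks were higher in lipid overload, by less than the 2.62-fold difference in depth. The peak chr1:125180061-125180389 had 147 fragments in lipid overload and 80 in mock. On the long arm of chromosome 5, chr5:49659786-49659938 had 143 and 89, and chr5:49601498-49601677 had 119 and 80. The peak chr21:10692713-10692951 had 73 in lipid overload and 50 in mock. All of these lay outside annotated genes and were shared, and the first 5 sites were also the 5 best-ranked members of the mock list. Lower in the ranking, chr4:49139631-49139813 had 84 fragments in lipid overload and 45 in mock. The peak chr10:41875371-41875514 had 82 and 53, and chr17:26603668-26603997 had 53 and 28. Of the 10 best-ranked lipid-overload members only chr4:49092746-49092905, with 87 fragments (69.7 to 107.3), had no overlap in mock. The nearest mock peak to it was 9.52 kb away and had 22 fragments.

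Found only in lipid overload and next in rank was chr5:49658626-49658776 with 106 fragments (86.8 to 128.2), 1.01 kb from a mock peak of 89. It was followed by chr17:26619431-26620086 with 34 (23.6 to 47.5), 15.4 kb from a mock peak of 28. Peak chr4:49137152-49137312 had 37 (26.1 to 51.0), 2.33 kb from a mock peak of 45. The fifth, at the promoter of ANKRD39, had 35 fragments (24.4 to 48.7), with a mock peak of 9 fragments 5.48 kb away. None of the 5 best-ranked peaks found only in lipid overload was thus more than 15.4 kb from a mock peak. The best peaks found only in mock were lower. They were chr9:40583849-40584163 with 7 fragments (2.81 to 14.4) over the pseudogene BMS1P14, chr22:17876625-17876786 with 8 (3.45 to 15.8) inside MICAL3, an actin-oxidising enzyme gene, and chr4:51107430-51107565 with 6 (2.20 to 13.1) outside any gene. In that order, the nearest lipid-overload peaks were 2.44, 15.2 and 430 kb away and had 8, 5 and 12 fragments. No mock-only member had more than 9 fragments.

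**Figure D2:**
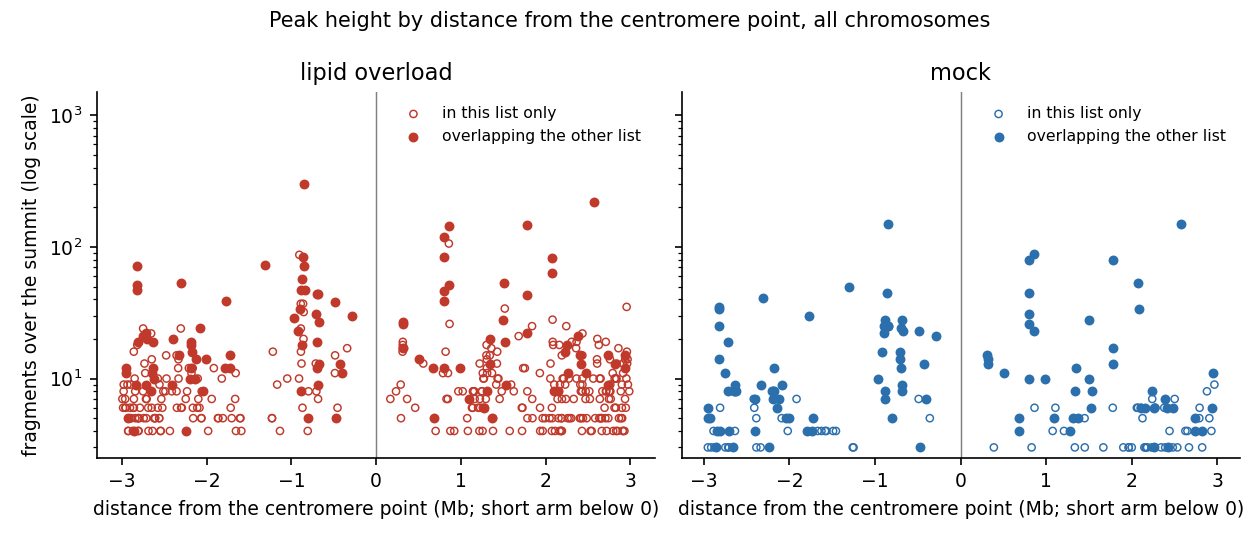
Fragments over the summit of each peak around a centromere (y axis, log scale) against its distance from the point in Mb (x axis, short arm below 0, all chromosomes laid over each other), lipid overload left and mock right, 1 library each. Filled circles overlap a peak of the other list and open circles do not. The tallest peak stands at 302 fragments in lipid overload and 150 in mock, and all mock peaks of 10 or more fragments are filled.

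Members of one list were found in the other more often than peaks elsewhere. Of the lipid-overload members 107 (24.7%, 20.7 to 29.1) overlapped a mock peak, against 14.1% of the rest of the list (13.7 to 14.5) and 14.3% of all its peaks. Of the mock members 108 (60.3%, 52.8 to 67.6) overlapped a lipid-overload peak, against 45.5% of the rest (44.4 to 46.6) and 45.8% of all. The 326 members found only in lipid overload were 75.3% of its members, where 85.7% of the whole list had no overlap. The 71 found only in mock were 39.7%, where the figure for the list was 54.2%. Without chromosomes 4 and 5 the members' share was 21.5% in lipid overload (17.4 to 26.0), with 14.0% in the rest, and 54.4% in mock (46.0 to 62.7), with 45.6% (44.5 to 46.7). The lower end of the members' interval in mock then lay within the interval of the rest. Overlap went with height. All 50 mock members of at least 10 fragments had a lipid-overload peak over them, against 94.1% of such peaks elsewhere. At 20 or more fragments 44 of 63 lipid-overload members (69.8%, 57.0 to 80.8) overlapped a mock peak, against 52.0% elsewhere. At 50 or more it was 17 of 19 (89.5%, 66.9 to 98.7), against 94.1% elsewhere.

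At shared sites the fragment numbers of the libraries were closer to equal around centromeres than elsewhere. Over 107 shared peaks the median ratio of lipid-overload to mock fragments was 1.67 (quartiles 1.34 and 2.25, range 1 to 5). Over 3789 shared peaks elsewhere it was 2.22. The ratio was below the depth ratio of 2.62 at 87 of the 107 (81.3%), where 64.2% of all shared peaks were below it. It was below 2.39, the ratio of the genome backgrounds, at 83 (77.6%), where 56.5% of all were. It reached no more than 0.5 times the depth ratio at 21 (19.6%), against 11.5% of all, and at least 2 times the depth ratio at none, against 1.41% of all. At least 2 times the ratio of 2.39 was reached at 2 (1.87%), against 3.11% of all. A site must pass the mock threshold to be shared, and sites tall in mock were also taken alone. Height in mock is the lower term of the ratio, so this choice itself favours low ratios and does not remove that selection. Among sites of 20 or more mock fragments the median was 1.65 over 29 pairs around centromeres and 1.90 over 176 pairs elsewhere, and 28 of the 29 were below the depth ratio, against 74.4% elsewhere. The same number was below 2.39, against 68.2% elsewhere. No more than 0.5 times the depth ratio was reached at 3 of the 29 (10.3%) and at 20 of the 176 elsewhere (11.4%). The 1 pair of the 29 above the depth ratio was chr4:49147274-49147441, with 72 fragments in lipid overload and 25 in mock, a ratio of 2.88 (1.81 to 4.74). Without chromosomes 4 and 5 the median over all shared peaks was 1.69 around centromeres (79 pairs) and 2.25 elsewhere.

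The surroundings of the shared peaks showed the same. Fragment ends in the 10 kb around a peak, taken to include the peak's own, had a median ratio of lipid overload to mock of 2.11 around centromeres and 3.03 elsewhere. These ends were solved from the local background, which does not fall below the genome background. At that floor they give the genome mean, not a local count. The floor held 16.9% of lipid-overload and 14.5% of mock members, against 7.26% and 9.40% of the rest. Peak borders also coincided more often. Both borders lay within 10 bp of those in the other list at 16 of 107 pairs (15%, 8.80 to 23.1), against 3.06% elsewhere. Among sites of 20 or more mock fragments the shares were 31.0% (15.3 to 50.8) and 15.3% (10.4 to 21.5), with intervals that overlap. Without chromosomes 4 and 5 the share over all shared pairs was 8.86% of 79, with 3.06% elsewhere. At sites of 20 or more mock fragments it was then 27.3% of 11 pairs, with 16.2% elsewhere. Shared lipid-overload peaks had a median width of 242 bp around centromeres and 342 bp elsewhere, and shared mock peaks 189.5 and 216 bp. How far width enters the border shares was not tested.

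**Figure D3:**
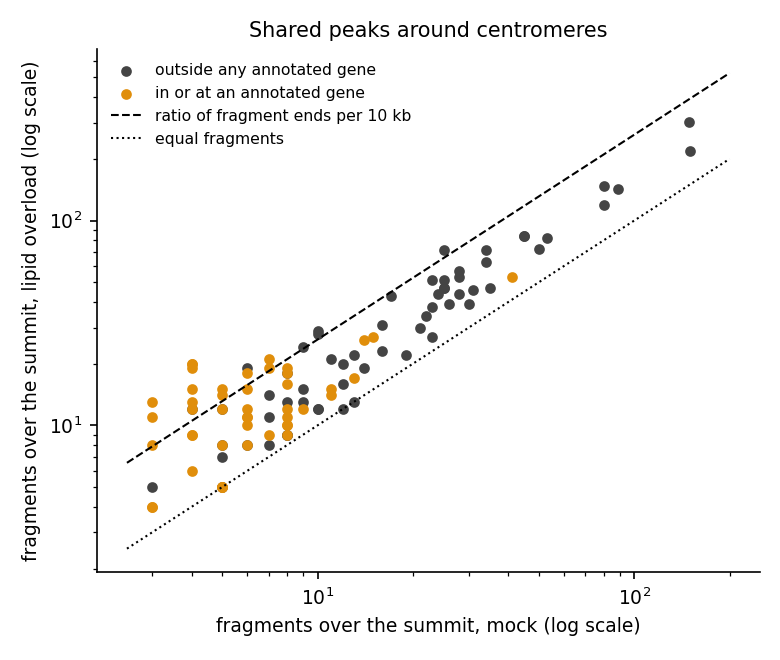
Fragments over the summit in lipid overload (y axis, log scale) against those in mock (x axis, log scale) at the 107 shared peaks around centromeres, 1 library each, grey outside any annotated gene and orange in or at one. The dashed line is the ratio of fragment ends per 10 kb of genome background, 2.62, and the dotted line equal fragments. Most points, 87 of 107, lie below the dashed line, and the tall ones are nearly all grey.

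Peaks around centromeres lay at or in coding genes less often than peaks elsewhere. The windows held 261 coding genes and 855 pseudogenes among 1492 genes, and the shares below were not set against this gene content. A coding gene end, taken as 1 kb either side of either end, held 74 lipid-overload members (17.1%, 13.7 to 21.0; 31.0% of all peaks of the list and 31.2% of the rest) and 19 mock members (10.6%, 6.51 to 16.1; 26.6% of all and 27.0% of the rest). Another 85 in lipid overload (19.6%) and 31 in mock (17.3%) were inside a coding gene, against 38.4% and 37.8% of the rest. No annotated gene lay at 204 lipid-overload members (47.1%, 42.3 to 51.9) and 95 mock members (53.1%, 45.5 to 60.6), against 21.6% and 24.6% of the rest. Without chromosomes 4 and 5 these last shares were 41.6% and 44.9%, with 21.0% and 23.8% of the rest. Pseudogenes held 30 members in lipid overload (6.93%) and 13 in mock (7.26%), against 1.37% and 1.82% of the rest. Noncoding RNA genes held 40 (9.24%) and 21 (11.7%), against 7.43% and 8.81%.

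The numbers of the lists differed by place. At coding gene ends around centromeres lipid overload had 3.90 times as many peaks as mock, and at gene ends elsewhere 3.72 times. Outside annotated genes the ratio was 2.15 around centromeres and 2.83 elsewhere. Members outside genes were more often tall than such peaks elsewhere. Of the 204 in lipid overload 51 had 20 or more fragments (25.0%, with 6.63% of such peaks elsewhere), and of the 95 in mock 28 did (29.5%, with 3.4%). These shares and the overlaps below were not computed without chromosomes 4 and 5. In any place, chromosomes 4 and 5 held 19 and 8 of the 63 lipid-overload members of that height. In mock they held 12 and 6 of the 29. Without them 9.78% of all lipid-overload members had that height, with 11.2% in the rest, and 7.48% of mock members, with 2.05%. Of the 19 lipid-overload members of 50 or more fragments 18 were outside genes, as were all 7 in mock. Their overlap with the other list was 29.9% in lipid overload (23.7 to 36.7) and 66.3% in mock (55.9 to 75.7), against 11% and 31.8% of peaks outside genes elsewhere. At coding gene ends the members were close to other gene-end peaks in overlap, at 21.6% in lipid overload (21.8% elsewhere) and 84.2% in mock (80.8% elsewhere).

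**Figure D4:**
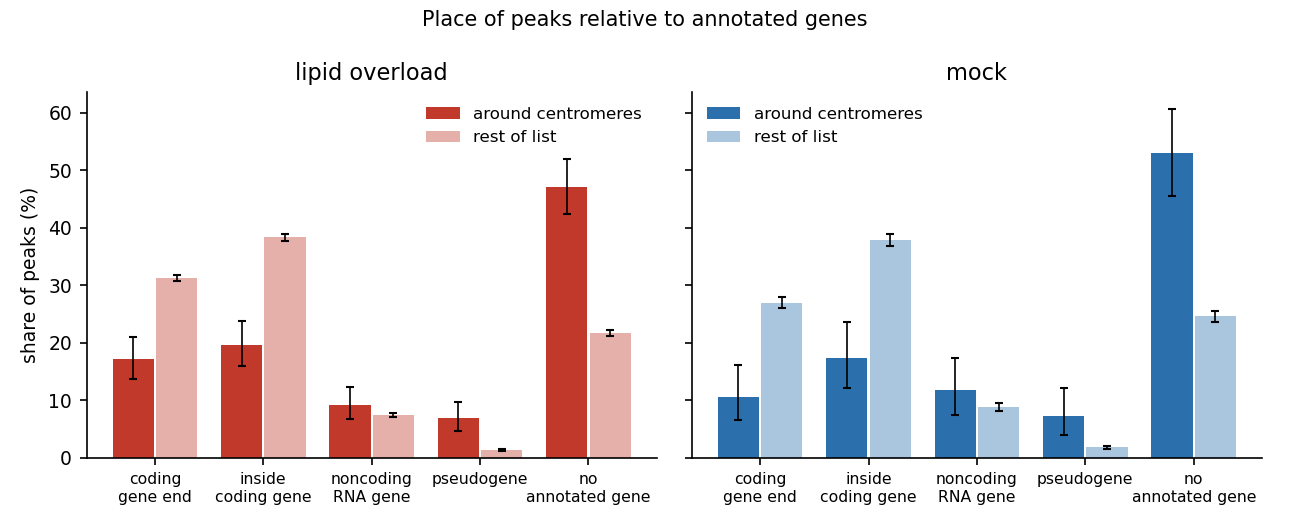
Share of peaks in percent (y axis) by place relative to annotated genes (x axis), lipid overload left and mock right, 1 library each, with members in dark bars and the rest of the list in pale bars. Error bars are exact 95% binomial intervals. Outside any annotated gene the members stand at 47.1% in lipid overload and 53.1% in mock, against 21.6% and 24.6% of the rest.

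Members close to the centromere point differed from those farther out. Within 1 Mb there were 81 in lipid overload and 44 in mock, from 1 to 2 Mb 100 and 39, and from 2 to 3 Mb 252 and 96. Outside any gene lay 80.2% of the lipid-overload members within 1 Mb, 56% of those from 1 to 2 Mb and 32.9% of those from 2 to 3 Mb, and 84.1%, 61.5% and 35.4% of the mock members. Overlap with the other list was 48.1%, 18% and 19.8% in lipid overload and 88.6%, 46.2% and 53.1% in mock. Peaks of 20 or more fragments were 38.3%, 11% and 8.33% in lipid overload and 40.9%, 10.3% and 7.29% in mock. Over all chromosomes, tall peaks, overlap and places outside genes were thus most frequent within 1 Mb. The innermost megabase without chromosomes 4 and 5 held 31 lipid-overload and 16 mock members. Of these, 4 (12.9%, 3.63 to 29.8) and 0 (up to 20.6%) had 20 or more fragments, against 11.8% and 11.1% from 1 to 2 Mb. Outside any gene lay 58.1% and 62.5% of them, against 59.1% and 63.9% from 1 to 2 Mb. Of the innermost members there, 38.7% (21.9 to 57.8) and 75% (47.6 to 92.7) overlapped the other list. Members were about as frequent on either arm in mock, with 91 on the short and 88 on the long arm, and in lipid overload there were 187 and 246. Chromosome 5 counts on the long arm only.

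**Figure D5:**
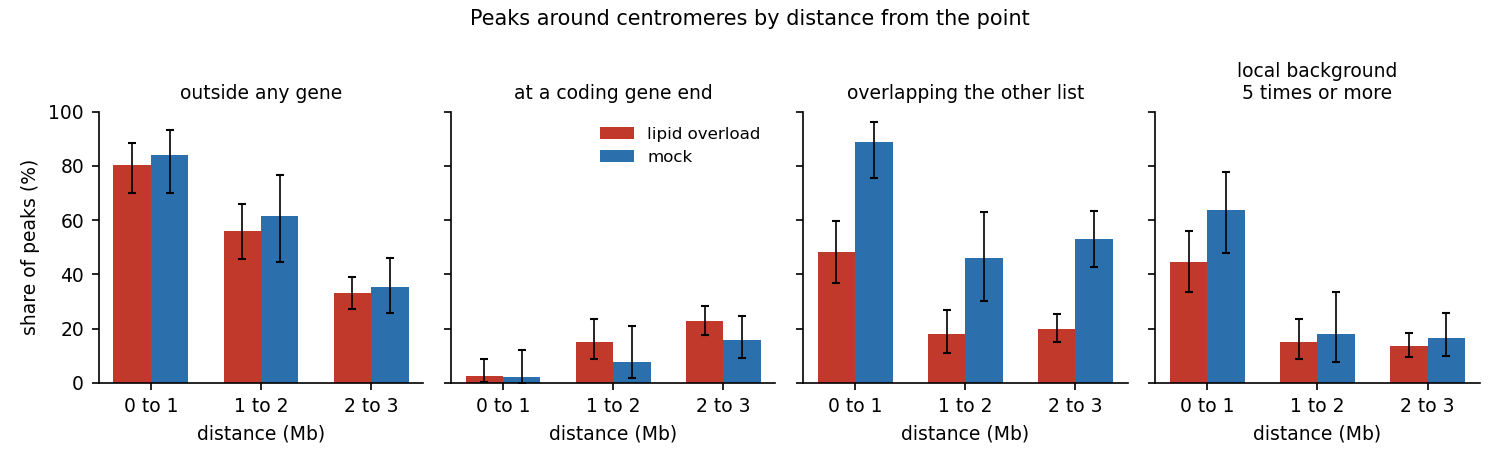
Share of peaks around centromeres in percent (y axis) that lay outside any gene, at a coding gene end, overlapping the other list or in a local background of 5 times the genome background or more (panels), by distance from the point in Mb (x axis), lipid overload left of mock, 1 library each, with exact 95% binomial intervals. Within 1 Mb 80.2% of lipid-overload and 84.1% of mock members lay outside genes, and from 2 to 3 Mb 32.9% and 35.4%.

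The local background, the level that the peak caller expected at a site from the reads around it, was high at part of the members. It was at least 5 times the genome background at 85 lipid-overload members (19.6%, 16 to 23.7), against 20.8% of the rest and 20.8% of all peaks of the list. In mock it was so at 51 members (28.5%, 22 to 35.7), against 18.5% of the rest and 18.7% of all. Without chromosomes 4 and 5 the mock share was 18.4% (12.5 to 25.6), with 18.6% in the rest, and the lipid-overload share 15.2% (11.7 to 19.3), with 21.1%. At 20 times the genome background or more there were 11 lipid-overload members (2.54%, with 0.421% of the rest) and 17 mock members (9.50%, with 0.694%). Without chromosomes 4 and 5 only 1 in lipid overload (0.272%, with 0.342%) and 8 in mock (5.44%, with 0.554%) were left. Fragments over the summit gave a median of 13.2% of the ends in the 10 kb around these 11 and 13% around the 17. Most ends there thus came from fragments that did not cover the summit. These can include fragments of the same peak and of neighbouring peaks. The typical member had a lower background than other peaks in lipid overload, with a median of 1.98 times the genome level and 2.59 in the rest, and in mock both were at 2.38.

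The highest local backgrounds lay in 2 runs of peaks and at the chromosome 3 peak. At chr5:49661444-49661832 the background was 38.2 times the genome level in lipid overload and 46.7 times in mock, with 1773 and 826 fragment ends in 10 kb, and the peak itself had 51 and 23 fragments. At chr5:49659786-49659938 it was 34.2 and 41.4 times. The peak chr4:49149336-49149824 had 33.7 and 37.5 times, and chr4:49147274-49147441 29.7 and 33.9 times. The lipid-only chr5:49658626-49658776 shared its 10 kb count of 1588 ends with the peak beside it. In mock the chromosome 3 peak had 44.7 times, and 24.5 times in lipid overload. Also on chromosome 5 in mock, chr5:49602010-49602150, chr5:49599490-49600186 and chr5:49600451-49600726 had 39.2 times each. In every shared pair named here the background stood a smaller multiple above the genome level in lipid overload than in mock.

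Some members stood in runs, here at least 4 lipid-overload members with gaps of no more than 50 kb. Runs were sought among members only, so how common they are in the rest of the list was not counted. The run chr4:49092746-49201360 held 18 lipid-overload and 8 mock members, and all 8 mock members were shared. On chromosome 5, chr5:49599490-49667238 held 11 in lipid overload and 6 in mock, all 6 shared. Of the 29 runs 8 held 4 or more mock members, 16 held 1 to 3 and 5 held none. The run chr21:9564347-9834901 held 11 in lipid overload and 7 in mock. On chromosome 15, chr15:20203553-20381138 held 14 members in lipid overload and 2 in mock, the highest with 18 fragments in lipid overload and 8 in mock. On the long arm of chromosome 2, chr2:96485673-96669880 held 10 in lipid overload and 1 in mock. These 5 runs were chosen after their values were seen.

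Coding genes were marked less often around centromeres than elsewhere. Of 261 coding genes with an end in a window, 82 (31.4%, 25.8 to 37.4; 43.4% of all coding genes and 43.6% of those elsewhere) carried a lipid-overload peak at an end. In mock a peak stood there at 20 (7.66%, 4.74 to 11.6; 13.4% of all and 13.5% elsewhere). Lipid overload alone marked 65 (24.9%, with 31.4% of all coding genes), both lists 17 and mock alone 3. Chromosome 2 had 20 of its 39 genes marked in lipid overload and 5 in mock, and chromosome 6 had 7 of 8 and 1 of 8. None was marked in either list among 38 genes of chromosome 11 and 17 of chromosome 14, most of which encode olfactory receptors. These genes are part of the 261, and the shares without them were not computed.

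The highest gene-end peaks of lipid overload lay at ANKRD39 with 35 fragments (24.4 to 48.7), DUSP2 with 25 (16.2 to 36.9) and NCAPH with 22 (13.8 to 33.3), none with a gene-end peak in mock. HSPA13 had 21 in lipid overload (13.0 to 32.1) and 7 in mock (2.81 to 14.4), and ABHD12 and ZNF337 had 20 (12.2 to 30.9) and 4 (1.09 to 10.2) each. Gene-end peaks were rare close to the points, with 2 in lipid overload and 1 in mock within 1 Mb. A single peak between VDAC3, a channel of the mitochondrial outer membrane, and DKK4, a secreted Wnt inhibitor, had 19 fragments in lipid overload and 4 in mock. STARD7, which carries phosphatidylcholine to mitochondria, had 19 in lipid overload only. So did the peak shared by TMEM127, a membrane protein, and CIAO1, a factor of iron-sulfur cluster assembly, and that of IL17RA, a subunit of the interleukin 17 receptor. Equal heights of 18 in lipid overload only stood at ZMYM2 with ZMYM5, at ATP6V1E1, a proton pump subunit, with BCL2L13, a Bcl-2 family member, and at DNM1L, the GTPase that divides mitochondria. These counts are of gene ends alone. Inside ZMYM2 another peak was shared, with 18 fragments in lipid overload and 6 in mock. A peak inside IL17RA was shared too, with 8 and 6.

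In mock the highest gene-end peak was at NLK, a serine/threonine kinase, with 15 fragments in lipid overload and 11 in mock (5.49 to 19.7). BAG2, a partner of Hsp70 chaperones, had 10 and 8. The counting intervals of the libraries overlapped at both, and both ratios were below that of the depths. ASTL, an oocyte protease gene, had 7 in mock (2.81 to 14.4) and no gene-end peak in lipid overload. At 6 mock fragments stood FNTA, a subunit of protein farnesyltransferase, with 10 in lipid overload, SNRNP200, a helicase of the spliceosome, with 15, and ZNF724 with 11.

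For gene families with duplicates near centromeres, a peak over the gene itself, between its annotated ends, was counted. Over all 1492 genes of the windows 160 (10.7%) were so marked in lipid overload and 79 (5.29%) in mock, and over the 261 coding genes 93 (35.6%) and 38 (14.6%). None was marked among 9 POTE genes, 4 TPTE, 3 CNTNAP3, 2 NBPF, 2 SPATA31, 1 FOXD4L and 1 CBWD or ZNG1 gene. Zinc finger genes, pseudogenes included, were marked in 16 of 42 cases (38.1%) in lipid overload and 4 (9.52%) in mock. Among them ZNF337 had 20 fragments in lipid overload, with its mock peak just outside the gene, ZNF33A 12 in lipid overload and 4 in mock, and ZNF892 12 in lipid overload only. Of 19 ANKRD genes 4 were marked in lipid overload and 2 in mock, with 12 and 6 fragments at ANKRD23 and 8 in lipid overload only at the pseudogene ANKRD33BP1. Of 6 FRG1 genes only FRG1HP was marked, with 14 fragments in lipid overload. This peak was shared, and the mock peak that overlapped it, of 5 fragments, ended just outside the gene. Of 19 immunoglobulin V segments only IGLV8OR8-1 was, with 3 fragments in mock.

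Of 8 BMS1 genes BMS1P23 had 5 fragments in lipid overload and BMS1P14 had 7 in mock. BAGE2 had 4 in mock, AQP7B 4 in lipid overload, and TEKT4P2 had 9 in lipid overload and 5 in mock. Within 1 kb outside AQP7B there was also a shared peak, of 5 fragments in each list. Of 51 LINC genes, long noncoding RNAs, 8 were marked in lipid overload and 2 in mock. LINC01667 had 19 and 8 fragments, LINC03146 16 and 8, and LINC00662 9 in lipid overload only. No tRNA gene of 10 and no small nuclear or nucleolar RNA gene of 23 had a peak, and of 24 miRNA genes 1 did, MIR4449, with 8 fragments in lipid overload. Reads of these families can come from near-identical copies, so a peak at one member may belong to another. The pseudogene with the highest peak was DUX4L44 on chromosome 22, named after the double homeobox gene DUX4, at chr22:12693648-12694100 with 53 fragments in lipid overload (39.7 to 69.3) and 41 in mock (29.4 to 55.6).

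The limit of 3 Mb lay among peaks of usual height. Just inside it lay lipid-overload peaks of 7, 8 and 6 fragments and mock peaks of 9, 5 and 3, and just outside it lipid-overload peaks of 7, 15 and 5 and mock peaks of 4, 5 and 3. The neighbouring bands, 3 to 6 Mb from the points, held 930 lipid-overload and 320 mock peaks. There 15.2% of the lipid-overload peaks overlapped the mock list (12.9 to 17.6), 25.2% lay outside any gene and 0.753% had 50 or more fragments, all 3 nearer to the rest of the list than to the members.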

How the data were processed

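Peaks were called per library. The submitters' processing notes name the build hg38 and the tools FastQC, BWA, deepTools and MACS2 2.1.2. Their settings and any use of IgG were not stated in what was used here. The deposited lists give each peak a score, a fold ratio, −log10 p, −log10 q and a summit offset, all the authors' own and used to describe, rank and filter within a list. The deposited fold and −log10 p were solved under the MACS2 formulas for whole fragments and local background (100% within 0.0001 in log10 p; 56 mock peaks had 2 solutions, and the closest was taken). The step was tested on simulated data. The summit's fragments never gave more than 100% of the ends in the 10 kb. These ends were taken as counted in the same library, which that limit alone does not show. The genome background was 0.289 fragments in lipid overload and 0.121 in mock, at mean fragment lengths of 124.5 and 136.8 bp.

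Genes were those of the RefSeq table of GRCh38.p14, without 718 genes that break the order of their chromosome by over 1 Mb. Overlap needs 1 bp. Windows total 135 Mb with assembly gaps. Counts have exact Poisson and shares exact binomial 95% intervals, for counting error alone, as PCR copies of a molecule are not independent. No test was run. Named peaks were the best-ranked by −log10 q then fold (10 lipid-overload, 5 mock, 5 and 3 found in 1 list only), the 5 highest local backgrounds per list, chromosomes with most members or none, and peaks nearest the limit. Named genes were the 15 and 5 with most gene-end fragments and up to 3 per family. Of these, 1 is not reported here. Members and lists were chosen with earlier results of these data known. Computed with Python 3.11.15, numpy 2.4.6, pandas 2.3.3, scipy 1.17.1 and matplotlib 3.10.9.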

Additional observations from a re-analysis of the deposited data

How the results depend on the processing

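Of 121 recomputed values, 54 stayed within the interval of the reported value, or within 1.5 times it for counts and medians, and 67 moved beyond it. Of the comparisons with the rest of the list, the higher mock share in high local background was lost without chromosomes 4 and 5 (18.4%, with 18.6% in the rest). So were, in lipid overload, the higher shares of members at 20 or more times the genome background (0.272%, with 0.342%) and of 20 or more fragments (9.78%, with 11.2%). No paired analysis was possible because each condition has 1 library. With −log10 q of at least 5, members numbered 206 in lipid overload and 52 in mock (1.93% and 3.64% of the lists), their median was 14.5 and 22.5 fragments, high local background stood at 29.6% and 61.5%, coding gene ends at 23.3% and 3.85%, no annotated gene at 53.9% and 82.7%, marked coding genes at 21.1% and 0.766%, and overlap in mock at 98.1%. With a fold of at least 5, members numbered 257 and 88 (1.77% and 2.60%), marked coding genes stood at 25.3% and 2.3%, gene ends at 23% in lipid overload, and in mock overlap at 78.4%, high background at 39.8% and no gene at 65.9%. In the rest of the mock list overlap was 87.8% at that −log10 q and 69.6% at that fold. In lipid overload it was 24.8% of members and 11.5% of the rest at that −log10 q. At that fold it was 26.8% and 16.1%.

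With windows of 1 Mb there were 81 and 44 members (0.297% and 0.515%), with overlap at 48.1% and 88.6%, medians of 16 and 14 fragments, high background at 44.4% and 63.6%, gene ends at 2.47% and 2.27% and no gene at 80.2% and 84.1%. With windows of 5 Mb there were 1028 and 397 (3.77% and 4.65%), with overlap at 19.8% and 51.4%, gene ends at 23.8% and 17.6%, no gene at 35.9% and 43.3% and high background in mock at 20.9%. Lists of equal length gave 178 lipid-overload members (2.08%) and overlaps of 48.9% and 49.2%, with overlap in the rest of those lists not computed. Overlap of 50% of each peak gave 17.8% and 43%. Background at 3 times the genome level stood at 32.1% and 41.9%, and at 10 times at 8.78% and 17.3%. Without chromosome 2 the lipid-overload share was 1.41%.

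Leaving out chromosomes 4 and 5, and setting shared peaks against the ratio of genome backgrounds (77.6% below it), were chosen after seeing the data. Without the chromosomes, high background stood at 15.2% in lipid overload, no gene at 41.6% and 44.9%, and members within 1 Mb at 8.42% in lipid overload and 10.9% in mock. At most 5 fragments were held by 23.8% of lipid-overload members (18.6% of the list) and 44.1% of mock members (55.3% of the list). Copy number, read placement in repeats and antibody background were not tested.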
